A study of Homo sapiens with 6 samples.

Results

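The transcripts described here code for 8 proteins of messenger RNA decay: UPF1, UPF2, UPF3A, UPF3B, SMG1, SMG5, SMG6 and PNRC2. They were chosen by name, as factors of nonsense-mediated and Staufen-mediated decay, and all 8 had a row among the 37879 gene rows of the table. Their levels were measured in total RNA of HEK293T cells, a human embryonic kidney line that carries the SV40 large T antigen, on 6 Illumina HumanWG-6 V3 arrays. In the control group (3 arrays) the cells had received an empty vector, and in the Stau1 group (3 arrays) they had received plasmids coding for Stau155-FLAG, a tagged isoform of the RNA-binding protein Staufen1. The cells of all 6 samples, controls included, were held in prometaphase with nocodazole (50 ng/ml for 15 h per the labels, with a longer time in the methods). The methods describe plasmids in which a Rous sarcoma virus promoter drives Stau155-FLAG in any cell that takes them up. Transfection was transient, and no sorting or selection of the cells is stated, so each sample may hold cells without plasmid. The labels do not say whether the 3 arrays of a group came from separate cultures, and p-values measure only the spread between these arrays.

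In nonsense-mediated decay a ribosome that stops too early on a transcript leaves UPF1, an RNA helicase, on it. UPF2 links UPF1 to UPF3A or UPF3B, which bind the protein complex left at exon junctions, and the kinase SMG1 phosphorylates UPF1. Phosphorylated UPF1 then recruits SMG6, which cuts the transcript internally, or SMG5 and the adaptor PNRC2, which bring in the enzymes that remove the cap and the poly(A) tail. In Staufen-mediated decay, Staufen1 bound to double-stranded RNA downstream of a stop codon recruits UPF1 directly. The comparison asks whether the transcripts of this machinery differ in abundance when prometaphase cells also make Stau155-FLAG.

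A detection p-value, which compares a row with the negative control beads of its array, was under 0.05 for 12730 to 13469 rows on each array, and 13285 rows were so detected on at least 3 of the 6 arrays and were kept. STAU1, carried by the plasmid, had log2 intensities of 11.19, 11.38 and 11.36 in the controls and of 11.39, 11.51 and 11.47 with Stau1 (in all such lists, replicates 1, 2 and 3 in that order). Every Stau1 value was above every control value, and the change of 0.15 (SE 0.09) had an adjusted p of 0.999 in limma. The STAU1 row was read as a mean over several probes, and which of them read the plasmid transcript is not known here. By western blot the paper found less of the tagged protein than of endogenous Stau1. Control replicate 3 correlated more closely with every Stau1 array (Pearson's r across rows of at least 0.995) than with either of the other controls (at most 0.992). Markers of prometaphase were detected on every array (6 of 6 genes), as were 4 of 5 genes chosen for HEK293T (NEFL, NEFM, SALL2 and LIN28B, but not PAX2). Of the markers of other cells, 1 of 6 for colon epithelium (CDX2) and 1 of 6 for bone and connective tissue (COL1A1) were detected on every array. The summed intensity of each of these marker lists overlapped between the groups. In bulk RNA, a change in the share of cells that make a transcript and a change in the amount per cell cannot be told apart.

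None of the 8 decay factor transcripts passed an adjusted p of 0.05 (limma, adjusted p = 0.999 for each), and 0% of the 13285 kept rows did. The change with the highest value in this fit was that of SMG6 (0.60 on the log2 scale), a row detected on only 1 of the 3 control arrays. That order was lost when the background was inferred from all rows, where SMG6 changed by 0.030 and SMG5 had the highest value, 0.28. The background SD of an array was then 337 to 488 intensity units, against 15.2 to 18.2 from the rows of 1 probe. Every SMG6 intensity lay below the larger SDs. In the fit as described, SMG6 was the only decay factor with an unadjusted p under 0.05 in limma, at 0.00134. Across all kept rows 3.73% had such a p in limma. SMG6 was also the only transcript of the 8 whose groups did not overlap (12.5%). Over all kept rows that share was 7.91%, and 4.51% with Stau1 higher. The mean was higher with Stau1 for 7 of the 8 transcripts and lower for PNRC2, where 49.4% of kept rows had a higher mean. Their median log2 change was 0.19, and that of all kept rows -0.00206. The 8 transcripts were read from the same 6 arrays and are not replicates of one another.

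**Figure D1:**
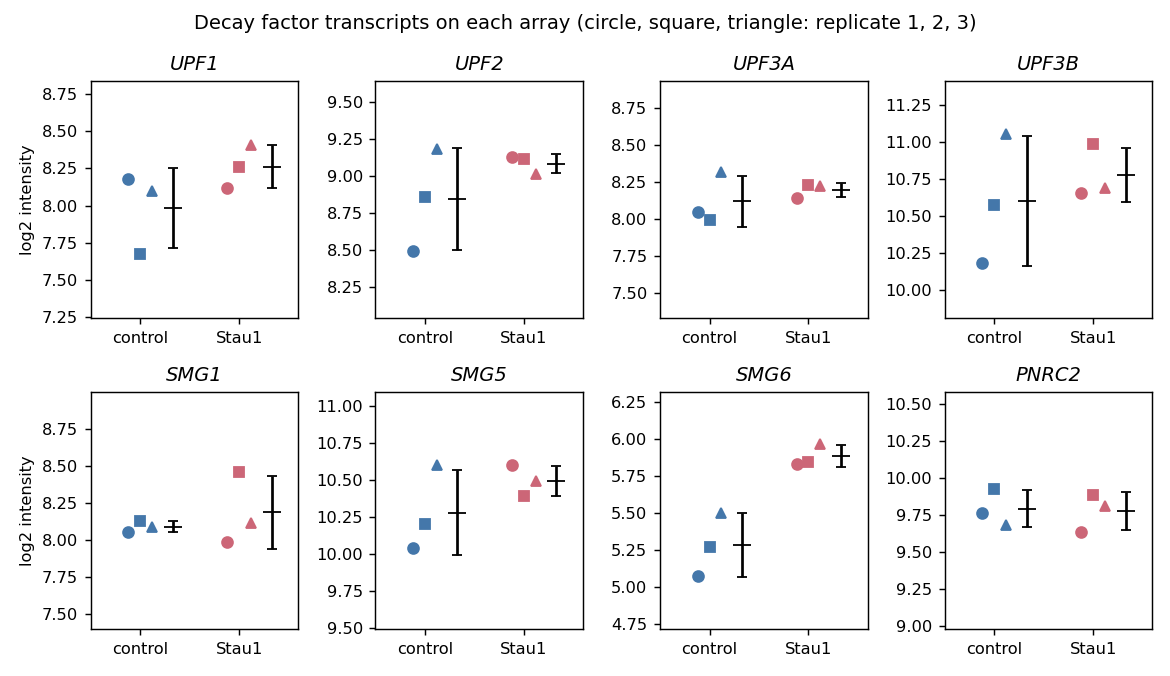
Normalized log2 intensity of the 8 decay factor transcripts in control and Stau1 arrays, with replicates 1, 2 and 3 as circles, squares and triangles and the mean and SD of each group as a black bar. Each vertical axis spans the same number of log2 units. The groups are apart only for SMG6, while the control values of UPF2, UPF3B and SMG5 spread from well below the Stau1 values up to their level or above it.

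That median depended on single control arrays. Without control replicate 3 it was 0.36, and without control replicate 1 it was 0.071. Without control replicate 3 the groups were apart for 5 of the 8 transcripts (UPF2, UPF3A, UPF3B, SMG5 and SMG6), where 29.1% of kept rows were. In that fit 4 of the 8 (UPF2, UPF3B, SMG5 and SMG6) had an unadjusted p under 0.05, against 12.7% of rows, and limma called 39 rows (0.294%), none of them a decay factor. The lowest adjusted p of the 8 was then 0.0734, for SMG6. Without control replicate 1 the groups were apart for UPF1 and SMG6 (18.1% of kept rows), and the same 2 transcripts were apart without Stau1 replicate 1 (16.1%).

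**Figure D2:**
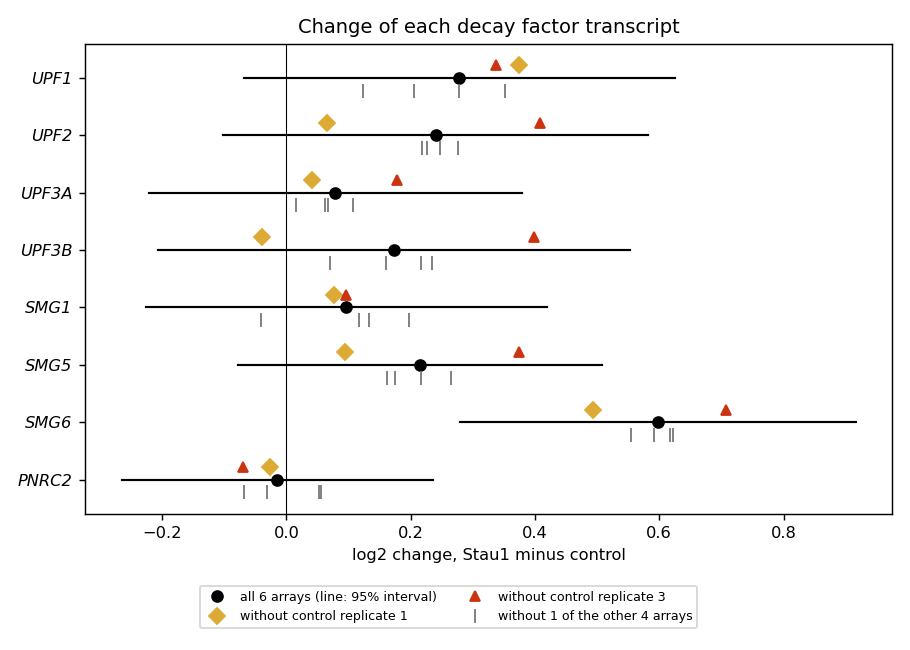
Log2 change of each transcript, Stau1 minus control. Black points are the fit to all 6 arrays with its 95% interval, diamonds and triangles the fits without control replicate 1 or 3, and ticks the fits without 1 of the other 4 arrays. The interval lies above 0 only for SMG6. UPF3B turns from 0.17 to -0.039 without control replicate 1, and to 0.40 without control replicate 3.

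UPF1 is the helicase on which both decay pathways converge, and its gene is on chromosome 19 (plus strand in the table). Its log2 intensity was 8.18, 7.67 and 8.10 in the controls and 8.12, 8.26 and 8.41 with Stau1. Control replicate 2 was the lowest array, and the other controls lay within or just below the Stau1 range, so the groups overlapped. The means were 7.98 ± 0.27 (SD, n = 3) and 8.26 ± 0.15 (SD, n = 3), a change of 0.28 (SE 0.16, 95% interval from -0.07 to 0.62). Without control replicate 2 the change was 0.12.

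UPF2, the scaffold between UPF1 and the UPF3 proteins (chromosome 10), differed among the controls more than between the groups. It was 8.49, 8.86 and 9.18 in the controls against 9.13, 9.11 and 9.01 with Stau1. Control replicate 1 was lowest and control replicate 3 highest of the 6 arrays, while the Stau1 arrays lay close together. The SD was 0.34 (n = 3) in control and 0.06 (n = 3) in Stau1 arrays. The change was 0.24 (SE 0.16, 95% interval from -0.10 to 0.58), and it was 0.065 without control replicate 1 and 0.41 without control replicate 3.

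UPF3A and UPF3B are paralogs that bridge UPF2 to the exon junction complex. UPF3B (chromosome X) had the widest control spread of the 8 transcripts, with 10.18, 10.58 and 11.05. With Stau1 it was 10.65, 10.98 and 10.69, entirely inside the control range. Its means were 10.60 ± 0.44 (SD, n = 3) and 10.78 ± 0.18 (SD, n = 3), and the change was 0.17 (SE 0.18, 95% interval from -0.21 to 0.55). UPF3A (chromosome 13) moved less. It was 8.05, 7.995 and 8.32 in the controls and 8.14, 8.23 and 8.22 with Stau1, again inside the control range. The change in UPF3A was 0.08 (SE 0.14, 95% interval from -0.22 to 0.38), and it was 0.016 without control replicate 2 and 0.18 without control replicate 3.

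SMG1, the kinase that phosphorylates UPF1 (chromosome 16), was tight among the controls and wide among the Stau1 arrays. The control values were 8.05, 8.13 and 8.09. The Stau1 values were 7.98, 8.46 and 8.11, so only Stau1 replicate 2 lay clearly above the controls. The change was 0.10 (SE 0.15, 95% interval from -0.23 to 0.42), and it was -0.041 without Stau1 replicate 2. The detection p was under 0.05 on 3 control arrays and 1 Stau1 array, although the signal lay between 275.5 and 461.3. The row is a mean over several probes, for which the table gives a combined detection p. SMG1 also has near-identical pseudogene copies on chromosome 16, and which of these transcripts its probes read is not known here. The table holds 3 other rows whose descriptions refer to SMG-1, named here after their values were seen. LOC440354 changed by -0.13 (SE 0.13) and its groups overlapped. LOC595101, detected on every array, was 5.94, 5.89 and 5.67 in the controls and 6.25, 6.49 and 6.32 with Stau1. Its groups were apart, by 0.52 (SE 0.15), with an adjusted p of 0.999 in limma, where 7.91% of kept rows were apart in either direction. Its unnormalized intensity was 118.1, 120.1 and 133.7 in the controls and 131.6, 171.4 and 160.4 with Stau1. Those values overlapped between the groups, and the background differed by array. The background means of the same arrays were 80.2, 79.8 and 92.7 in the controls and 74.6, 91.0 and 92.7 with Stau1. The background SD was 15.2 to 18.2. LOC730099 was detected on none of the 6 arrays.

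SMG5, an adaptor that joins phosphorylated UPF1 to the decay enzymes (chromosome 1), followed the arrays much as UPF2 did. It was 10.04, 10.20 and 10.60 in the controls and 10.60, 10.39 and 10.49 with Stau1. Control replicates 1 and 2 lay below every Stau1 array, and control replicate 3 lay level with the highest of them. The means were 10.28 ± 0.29 (SD, n = 3) and 10.49 ± 0.10 (SD, n = 3), a change of 0.21 (SE 0.14, 95% interval from -0.08 to 0.51). It was 0.094 without control replicate 1 and 0.37 without control replicate 3. Among the 8 transcripts, the pair with the most similar profile was UPF2 and SMG5: the root mean square difference of their centred log2 values over the 6 arrays was 0.09. For UPF2 and UPF3B it was 0.12. Control replicate 1 was the lowest of the 6 arrays for 4 of the 8 transcripts (50%), where it was lowest for 25.5% of kept rows, and control replicate 3 was the highest control for 5 of 8 (62.5%), where it was for 32.3% of kept rows.

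The sequence before the start sites of SMG5, UPF3A and UPF3B is shown because it shares a short motif. The windows are from RefSeq (GRCh38.p14), in which all 8 genes matched, with 15 windows in all. The 6 bases TCGCGA, their own reverse complement and so the same on both strands, were chosen after the sequences had been seen. They occurred in at least 1 window of SMG5, UPF3A and UPF3B (3 of 8 genes), and in 3.76% of the 27305 genes with a window. Counted by window, they were in 4 of the 15 and in 3.12% of all 35116 windows (each of 250 bases before and 50 after a start). The longer form CTCGCGAG, which contains it, occurred in UPF3A and UPF3B and in 1.23% of genes. The windows of UPF2, UPF1, SMG1, SMG6 and PNRC2 held no TCGCGA, so UPF2, whose profile was closest to that of SMG5, lacked it. For comparison, CCAAT was in 5 of the 8 genes (39.7% of all genes) and GGGCGG in 7 of 8 (48.3%), on either strand. A match is a description of the sequence, and its part in the levels was not tested. The lines show the 150 bases before 1 listed start of each of the 3 genes, written 5′ to 3′ on the gene's strand, with TCGCGA in capitals.
SMG5 (chr1:156282826-156282975, minus strand): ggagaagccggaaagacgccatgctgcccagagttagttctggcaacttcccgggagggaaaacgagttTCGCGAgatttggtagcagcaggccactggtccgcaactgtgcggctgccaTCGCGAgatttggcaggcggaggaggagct
UPF3A (chr13:114281451-114281600, plus strand): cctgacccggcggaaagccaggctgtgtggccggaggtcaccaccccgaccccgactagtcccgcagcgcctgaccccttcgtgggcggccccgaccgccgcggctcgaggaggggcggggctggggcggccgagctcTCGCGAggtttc
UPF3B (chrX:119852964-119853113, minus strand): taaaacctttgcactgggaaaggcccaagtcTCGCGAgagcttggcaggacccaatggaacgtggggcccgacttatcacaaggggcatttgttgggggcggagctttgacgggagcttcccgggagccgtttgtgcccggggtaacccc
In these stretches the 1 copy began 12 bases before the start in UPF3A and 119 bases before it in UPF3B. The SMG5 stretch held 2 copies, the first 81 bases before the start. Another listed start of UPF3A, not shown, had 2 copies in its 150 bases, the first 95 bases before it.

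SMG6, the endonuclease of the pathway (chromosome 17), was detected on 1 of the 3 control arrays and on all 3 Stau1 arrays. Its log2 intensity was 5.08, 5.27 and 5.50 in the controls and 5.83, 5.84 and 5.97 with Stau1. On this normalized scale the lowest Stau1 value exceeded the highest control value by more than the range of the Stau1 values. The means were 5.28 ± 0.21 (SD, n = 3) and 5.88 ± 0.07 (SD, n = 3), a change of 0.60 (SE 0.15, 95% interval from 0.28 to 0.92, before any correction for the number of rows). With 3 arrays against 3, an exact two-sided permutation test cannot go below p = 0.1, the value that any groups without overlap give. By its unadjusted p SMG6 ranked 13 of 13285 rows (adjusted p = 0.999 in limma).

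This difference rests on signals close to background. The unnormalized intensity of SMG6 was 90.5, 97.9 and 125.4 in the controls, which is 10.3, 18.1 and 32.7 units above the background mean of the respective array. With Stau1 it was 114.1, 135.8 and 142.2, or 39.5, 44.8 and 49.4 units above background. The unnormalized intensities overlapped between the groups, with control replicate 3 (125.4) above Stau1 replicate 1 (114.1). The units above background did not overlap. In units of the background SD, these are 0.633, 1.19 and 1.80 for the controls and 2.42, 2.71 and 2.94 for the Stau1 arrays. Since only 1 control array had a detection p under 0.05, the row was kept mainly through the group in which it was higher. The change was 0.30 with no background correction, 0.35 with a larger offset, and 0.030 with the background inferred from all rows, where UPF1, UPF2, UPF3B, SMG1 and SMG5 had higher values. Cyclic loess gave 0.57, median scaling 0.60, array weights 0.62 and the generalised log 0.74. The change in SMG6 was 0.49 to 0.71 when 1 array was left out.

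**Figure D3:**
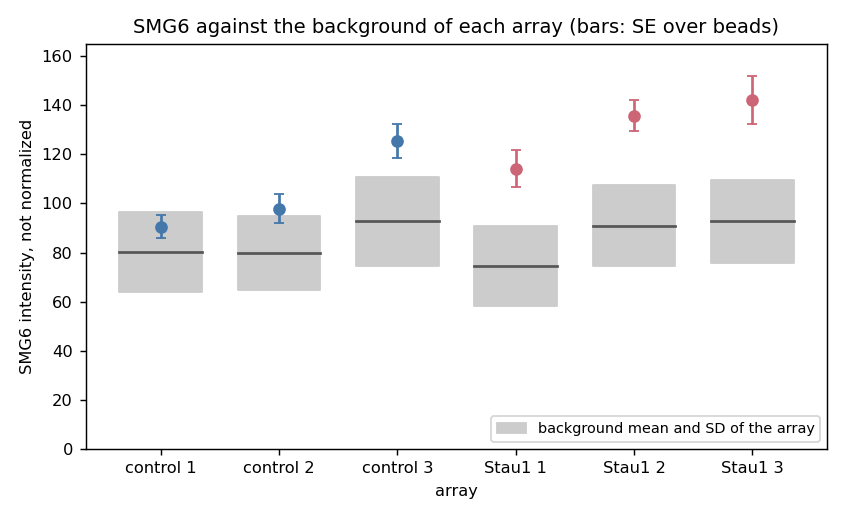
Unnormalized intensity of SMG6 on each array (points, with the standard error over beads), beside the background mean (line) and its SD (grey band) of that array. Control replicates 1 and 2 lie within or near the band, and the 3 Stau1 arrays lie more than 2 background SDs above the mean.

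The kept rows with the profiles most similar to that of SMG6 over the 6 arrays were 3, with a root mean square difference of centred log2 values of 0.08 for GOLGA3, which codes for a Golgi protein, 0.08 for TLN1, which codes for talin, and 0.09 for POLR2A, which codes for the largest subunit of RNA polymerase II. All 3 were detected on every array. GOLGA3 was 9.25, 9.28 and 9.76 in the controls and 9.93, 9.94 and 10.04 with Stau1. The similarity was searched over all kept rows and carries no test.

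PNRC2, which joins UPF1 to the decapping complex (chromosome 1), showed no difference between the group means beyond their spread. It was 9.77, 9.93 and 9.68 in the controls and 9.64, 9.88 and 9.81 with Stau1. The groups overlapped almost fully, and the change was -0.01 (SE 0.12, 95% interval from -0.26 to 0.24).

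Each array also gives an error within it, the standard error over the beads that carry a probe. This bead error, taken from the unnormalized intensity, was compared with the spread between arrays. That spread was of log2 values that were quantile-normalized without background subtraction. The bead error of the 8 rows ran from 2.20% to 6.98% of the intensity. For UPF3B the SD between arrays, pooled over the groups, was 0.32, which is 6.52 times the median bead error of 0.05. For UPF2 it was 3.67 times the bead error, and for SMG5 the SD was 0.206 against a bead error of 0.041. For SMG6 the ratio was 1.09, and over all kept rows the median ratio was 1.98. The rows of UPF2, UPF3A, UPF3B, SMG1 and PNRC2 are means over several probes, for which the bead error is not the error of the row. The bead error also leaves out differences between samples. For 6 of the 8 transcripts (75%) the SD of the background-corrected and normalized values was larger among controls than among Stau1 arrays. SMG1 and PNRC2 were the exceptions. That SD was larger among controls for 68.4% of kept rows.

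**Figure D4:**
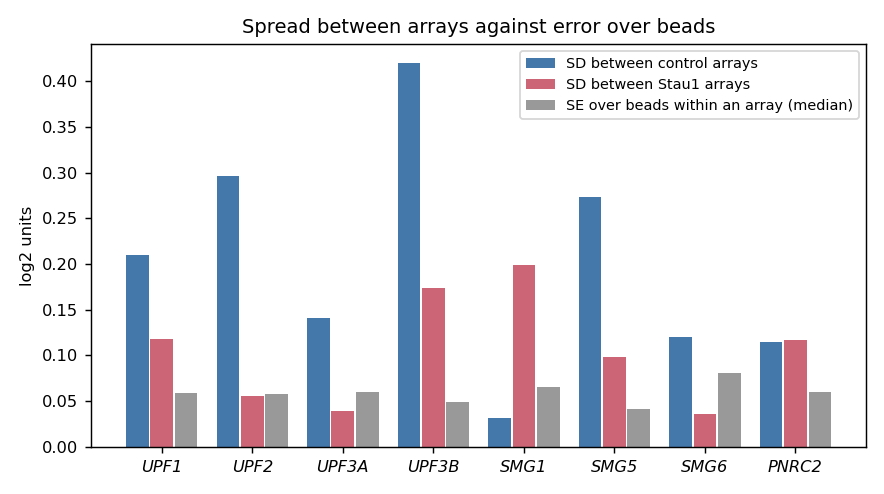
SD between the 3 control arrays, SD between the 3 Stau1 arrays and median standard error over beads within an array for each transcript, all in log2 units without background correction. The SDs are of quantile-normalized values, and the bead error is of unnormalized intensities. The control bar is far above the bead error for UPF3B, UPF2 and SMG5, and SMG1 is the one transcript with a control bar below its bead error. The rows of UPF2, UPF3B and SMG1 are means over several probes, for which the bead error is not the error of the row.

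The rest of the decay machinery was described by 6 lists that together held 72 kept genes, and 0 of these passed (limma, adjusted p = 0.999 at the lowest). Of 11 kept further factors of nonsense-mediated decay, including the release factor subunits, 6 had a higher mean with Stau1. The lowest p in that list belonged to NBAS, with a change of -0.33 (SE 0.18), and to GSPT1, a release factor subunit, with 0.12 (SE 0.08). The 6 kept proteins of the exon junction complex had a median of 0.07, led by MAGOH (0.13, SE 0.11) and CASC3 (0.12, SE 0.13).

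Decapping and exonuclease factors had a median of 0.02 over 14 kept genes, and the groups were apart for 2 of them, both with Stau1 higher, beside 4.51% of all kept rows. These were EDC4, a scaffold of the decapping complex (0.23, SE 0.11, unadjusted p = 0.0489 in limma), and PATL1, a decapping activator (0.19, SE 0.10). Over the 19 kept genes of deadenylation the median was -0.02, with CNOT1 apart upward (0.13, SE 0.10) and CNOT8 apart downward (-0.14, SE 0.12), beside 7.91% of all kept rows apart in either direction. The 16 kept genes of the exosome and SKI complex had a median of -0.00584, and the lowest p values were those of EXOSC7 (-0.20, SE 0.11) and WDR61 (-0.18, SE 0.10).

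The last list held transcripts known to be substrates of nonsense-mediated decay. Of the 7 that were kept, 6 had a higher mean with Stau1, and the median change was 0.04. GADD45B, a stress-response gene, was 5.62, 5.57 and 6.58 in the controls and 6.22, 6.11 and 6.22 with Stau1, a change of 0.26 (SE 0.23) within its control range. ATF4, a transcription factor of the stress response, changed by 0.04 (SE 0.07, 95% interval from -0.12 to 0.20). Without control replicate 3 none of the 72 passed in limma, and the lowest adjusted p in any of these lists was 0.144, among the transcripts sensitive to nonsense-mediated decay.

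**Figure D5:**
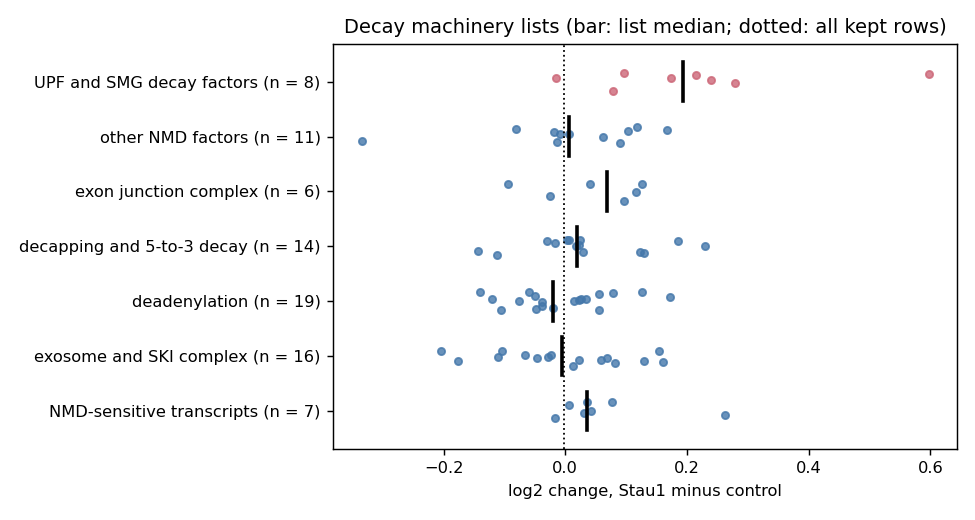
Log2 change of the kept genes of each list, Stau1 minus control, with the list's median as a bar and the median of all kept rows as a dotted line. The decay factors have a median of 0.19, and the other lists have medians between -0.02 and 0.07.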

How the data were processed

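Total RNA of 6 samples was hybridised to Illumina HumanWG-6 V3 arrays, and samples were grouped by their titles. The deposited table is a gene profile exported from BeadStudio without normalization. Per the file headers it gives for each gene and array an intensity, to which the authors had applied no normalization and no background subtraction, a detection p-value, a standard error over beads, in intensity units as a signal, and a mean bead number, listed here as a score. The authors describe variance stabilization and robust spline normalization after a sentence on the comparison of immunoprecipitates, without saying whether they were also used for total RNA. Number of arrays limits the precision.

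In R 4.3.3 with limma 3.58.1, background was corrected with normexp (offset 16), and intensities were then quantile-normalized and taken to log2. Background mean and SD were inferred from detection p-values of the 30932 rows with whole bead numbers and p-values in whole steps of 1 in 759 (tolerance 0.002 steps), which were read as rows of 1 probe; of the decay factors these were UPF1, SMG5 and SMG6. A row was kept when its detection p was below 0.05 on 3 or more arrays (35.1%). Groups were compared with lmFit and eBayes with a variance trend over all kept rows, Benjamini-Hochberg adjustment and a threshold of 0.05. A t-test, which the methods name for the comparison of immunoprecipitates, was run as an alternative. The paper also compared total RNA of these groups and reported very few probes beyond its limits. Those were a fold change and a p-value, unlike the threshold used here.

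The decay factors and gene lists were chosen with earlier results of these data known. SNHG1 and HBA1 were not analysed here. Older symbols were matched for SMG8 (C17ORF71), SMG9 (C19ORF61), PYM1 (WIBG), CNOT9 (RQCD1) and CNOT11 (C2ORF29). Named were all decay factors, STAU1, the 2 kept genes of lowest p in each list and the 3 rows most like the decay factor of lowest p; the SMG-1-like rows were added after their values were seen. Some listed genes and markers are not reported here. Promoter sequences are from RefSeq (GRCh38.p14), and probe sequences were not used here. Figures were drawn with matplotlib 3.10.9. Alternatives changed the background (none, from all rows, offset 50), the scale (generalised log, cyclic loess, median scaling), the filter (none, or detection p below 0.01 on each array) or the fit (array weights, without the variance trend, the replicate block, the methods' t-test), or left out each array in turn.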

Additional observations from a re-analysis of the deposited data

How the results depend on the processing

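In 12 alternatives run on all 6 arrays, 0 rows, 0 decay factors and 0 list genes were called. The methods' t-test gave an unadjusted p under 0.05 for 464 rows, of the decay factors only for SMG6. With 1 array left out, the count of rows ran from 0 to 39, the 39 without control replicate 3, and the counts of decay factors and list genes stayed at 0. The median change of the 8 decay factors was 0.053 with the background inferred from all rows and 0.071 to 0.36 with 1 array left out. The number whose groups did not overlap was 0 when each array needed a detection p below 0.01, a filter that removed SMG1 and SMG6, and 1 to 5 with 1 array left out. PNRC2 turned to 0.073 with median scaling, which moved the median of all kept rows from -0.00206 to 0.07, and it ran from -0.069 to 0.055 with 1 array left out. SMG1 ran from -0.041 to 0.20 and UPF3B from -0.039 to 0.40 with 1 array left out. UPF1 was 0.45 with array weights, and, when all rows gave the background, UPF1 was 0.075, UPF2 0.12, UPF3A 0.020, SMG1 0.032 and SMG6 0.030. All rows gave a background SD of 337 to 488 intensity units per array. The cause of these moves was not tested. Deviations of same-numbered arrays from their group means had correlations of 0.02, 0.26 and -0.14, and no pairing was taken from them. With the replicate block, 0 decay factors and 0 rows were called (lowest adjusted p = 0.986). Signal over background limits SMG6.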
